A study of Mus musculus with 4 samples.

Results

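Conventional dendritic cells of the lung were taken from the single-cell RNA-sequencing libraries of TNF+ and TNF- mice. A barcode, which stands for 1 captured cell, was kept when it held at least 500 UMIs (unique molecular identifiers, each a tag on 1 captured RNA molecule) with at most 20% of them from mitochondrial genes. It was then selected on raw UMI counts. The sum of Flt3, Zbtb46, Xcr1, Clec9a and Ccl22 had to reach 3 UMIs and the sum of the MHC class II genes H2-Ab1 and H2-Aa 10 UMIs. No UMI of Cd3e (T cells), of Cd79a or Ms4a1 (B cells) or of Cdh5 (endothelium) was allowed, and C1qa, C1qb and C1qc (macrophages) together had to stay under 20 UMIs. In all, 484 barcodes met the rule, 120 in the TNF- and 364 in the TNF+ lung, of 19427 lung barcodes that passed the first limits and of 30943 barcodes in the series. All values of these cells for the genes above were used to select them and are given as description.

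TNF+ mice were 4-month-old females of the TNF-Tg line, which carries a human TNF transgene, and TNF- mice were littermates of the same age and sex without the transgene. Both were on the C57BL/6 background. Lungs of several mice were pooled by genotype before live cells were sorted and captured, so each genotype is 1 library and no difference below has a replicate check. No test between genotypes was possible, and the intervals given are 95% intervals of counting error alone, which leave out the variation between mice and between captures. The libraries held 96120328 UMIs (TNF- lung) and 155989523 UMIs (TNF+ lung), and 21 barcode sequences occurred in both, of which none met the rule in both.

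Conventional dendritic cells take up antigen in tissues, carry it to lymph nodes and present it to T cells on MHC molecules. They develop from bone marrow precursors that need Flt3, the receptor of Flt3 ligand, and they express the transcription factor Zbtb46. A first lineage (cDC1) depends on Batf3 and Irf8, carries the chemokine receptor Xcr1 and the dead-cell receptor Clec9a, and presents antigen taken up from dying cells to CD8 T cells. The other lineage (cDC2) is more diverse, carries Sirpa, in the lung often with the lectins Cd209a and Mgl2, and shares several genes with monocyte-derived cells. On maturation both express Ccr7, which guides them to lymph nodes, together with the actin-bundling protein Fscn1 and the T cell attractants Ccl22 and Ccl17.

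The cells were described in 3 groups. Ccr7/Ccl22 cells held at least 1 UMI of Ccr7 and at least 3 UMIs of Ccr7 and Ccl22 together, and numbered 7 in the TNF- and 24 in the TNF+ lung. Xcr1/Clec9a cells were those with at least 2 UMIs of Xcr1 and Clec9a among the others, 52 and 137. The remaining cells numbered 61 and 203. Only 2 of the Ccr7/Ccl22 cells, both in the TNF+ lung, also met the limit on Xcr1 and Clec9a.

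The RefSeq sequences (GRCm38.p6) of the 250 bases before the start of 4 genes that separate these groups are given 5′ to 3′ on the strand of the gene, since these genes define the groups or lead them. Capitals mark every match, on either strand, to GGGNNNNNCC, a loose form of the NF-kB motif. Xcr1 lies at chr9:123862030-123862279 on the minus strand, Clec9a at chr6:129408612-129408861 on the plus strand, Ccl22 at chr8:94745434-94745683 on the plus strand and Fscn1 at chr5:142960105-142960354 on the plus strand.
Xcr1: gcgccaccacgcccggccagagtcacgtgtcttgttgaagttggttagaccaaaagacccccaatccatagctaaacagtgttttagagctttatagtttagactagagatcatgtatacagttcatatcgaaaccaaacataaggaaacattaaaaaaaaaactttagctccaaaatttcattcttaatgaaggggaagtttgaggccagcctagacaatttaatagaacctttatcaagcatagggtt
Clec9a: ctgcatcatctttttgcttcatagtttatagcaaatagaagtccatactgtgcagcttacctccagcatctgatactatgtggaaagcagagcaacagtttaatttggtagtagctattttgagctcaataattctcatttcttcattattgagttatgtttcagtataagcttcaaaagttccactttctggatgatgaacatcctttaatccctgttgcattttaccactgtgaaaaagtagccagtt
Ccl22: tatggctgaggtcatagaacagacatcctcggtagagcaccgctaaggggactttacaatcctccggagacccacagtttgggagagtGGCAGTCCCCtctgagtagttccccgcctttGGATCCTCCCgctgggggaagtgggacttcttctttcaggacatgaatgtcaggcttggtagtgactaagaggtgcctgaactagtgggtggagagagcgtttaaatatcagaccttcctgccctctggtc
Fscn1: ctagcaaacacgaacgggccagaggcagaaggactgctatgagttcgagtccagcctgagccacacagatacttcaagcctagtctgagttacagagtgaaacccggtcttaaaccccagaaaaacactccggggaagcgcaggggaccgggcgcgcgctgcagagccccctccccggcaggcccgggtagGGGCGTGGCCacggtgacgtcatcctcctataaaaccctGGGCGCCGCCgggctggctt
The Ccl22 window held 2 matches, which begin 162 and 131 bases before the start, and the Fscn1 window 2 matches, at 59 and 20 bases. No match was found in the Xcr1 and Clec9a windows, nor in that of Ccl17, the other T cell attractant of mature cells. Other windows were mixed. Those of Mgl2 and Cst3 held 2 each and that of Naaa, another cDC1 gene, held 1. Of the 2 windows of Irf8, 1 held 5 and the other none. The windows of Cacnb3, on the mature list, held 1 and 2, while that of Traf1, also on that list, held none. Those of Wdfy4 and Cd209a held none either. Whether matches follow the groups cannot be settled from so few windows. Of all 32851 windows of this length, 45.8% held at least 1 such match. The AP-1 motif TGANTCA (6.75% of all windows) and the composite PU.1-IRF motif (2.30%), searched on both strands, were in none of the 4 windows. Windows were found for 18 of 21 genes looked for, and a match is only a run of letters, not a measured site.

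Other cell types were looked for before the groups were compared. Markers at high counts (at least 50 UMIs of Sftpc, Chil3 or S100a8, or 10 of Siglech or of Col1a1 and Dcn) were present in 15 of 120 TNF- and 34 of 364 TNF+ barcodes and in none of the Ccr7/Ccl22 cells. In the Xcr1/Clec9a group these were 4 TNF- barcodes, all with Chil3 of alveolar macrophages, and 15 TNF+ barcodes, 9 with Chil3 and 4 with Siglech of plasmacytoid dendritic cells. Their median sum of H2-Ab1 and H2-Aa was 14 and 75 UMIs, against 412 and 520.5 in the other cells of the group. In the remaining group 11 TNF- barcodes (4 with Sftpc of alveolar epithelium, 5 with Siglech) and 19 TNF+ barcodes (12 with Chil3, 4 with Sftpc) carried such markers, with medians of 36 and 46 UMIs against 435.5 and 432. Where leaving these barcodes out ended a 2-fold difference named here, that is said beside it. No doublet caller was run, and no upper limit was set on genes per cell: 63 of 120 TNF- and 209 of 364 TNF+ cells had over 5000 genes.

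The rule genes were read against barcodes that lack them. In Xcr1/Clec9a cells Flt3 was detected in 88.5% of TNF- and 85.4% of TNF+ cells, Zbtb46 in 92.3% and 88.3%, Xcr1 in 78.8% and 75.9% and Clec9a in 98.1% and 96.4%. In T cell barcodes, which lack these genes, Flt3 was found in 4.04% and 1.21%, Xcr1 in 1.05% and 1.59% and Clec9a in 0.299% and 0.934%, at median depths of 9889.5 and 10134 UMIs. The members were deeper, with medians of 24995.5 UMIs in the TNF- and 27708.5 in the TNF+ lung. Endothelial barcodes carried Zbtb46 in 47.8% and 67.2% and Clec9a in 31.3% and 53.2%, and the limit on Cdh5 alone kept out 205 TNF- and 69 TNF+ barcodes.

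Genes that the rule did not use come from the same cells that were grouped, so their values are description. Irf8, which cDC1 depend on, was detected in 96.2% and 93.4% of Xcr1/Clec9a cells, against 39.3% and 32.0% of remaining cells. Wdfy4, needed for cross-presentation, was in 100% and 97.8% of Xcr1/Clec9a cells and also in 90.2% and 92.6% of remaining cells. Besides Xcr1 and Clec9a, the genes highest in Xcr1/Clec9a over remaining cells in both libraries included the lectin Cd207 (204 CPM against 0 in TNF-, 51.6 CPM against 0 in TNF+), Gcsam, the interferon-inducible Ifi205 and the double-stranded RNA sensor Tlr3 (log2 ratio 4.35 in TNF-, 3.98 in TNF+). CPM are UMIs of a gene per 1000000 UMIs summed over the cells of a group. Fscn1 was in 100% and 95.8% of Ccr7/Ccl22 cells and in at most 9.85% of the cells of another group. Other genes at the top of Ccr7/Ccl22 over remaining cells were Apol7c, Il12b, Mreg, the signalling inhibitor Socs2 and Tmem123 (4.48 and 3.87).

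The remaining cells went against the label in part. The lectins Cd209a, Mgl2 and Clec10a were high there over Xcr1/Clec9a cells (log2 ratios of Cd209a 6.42 in TNF- and 3.10 in TNF+), and Sirpa was in 86.9% and 97.0% of the cells. The 9 highest ratios, however, were of epithelial genes, among them Sftpd and Sftpc, and the summed CPM of 9 epithelial markers in this group were 15028 in TNF- and 6150 in TNF+. Without the barcodes with markers of other cells those sums were 526 and 372 CPM. Flt3 was detected in 90.2% of TNF- remaining cells but in 56.2% of TNF+ remaining cells (42.6% and 19.2% after each cell was thinned to 2000 UMIs). Zbtb46 went the other way, with 80.3% and 96.6% (16.4% and 32.5% when thinned). Both genes count toward the rule's sum, and cells without Flt3 needed Zbtb46 or Ccl22 to reach it. The shares of Flt3 and Zbtb46 are therefore bound to each other by the rule. For these reasons the group is called by its rule and not by a cell type.

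**Figure D1:**
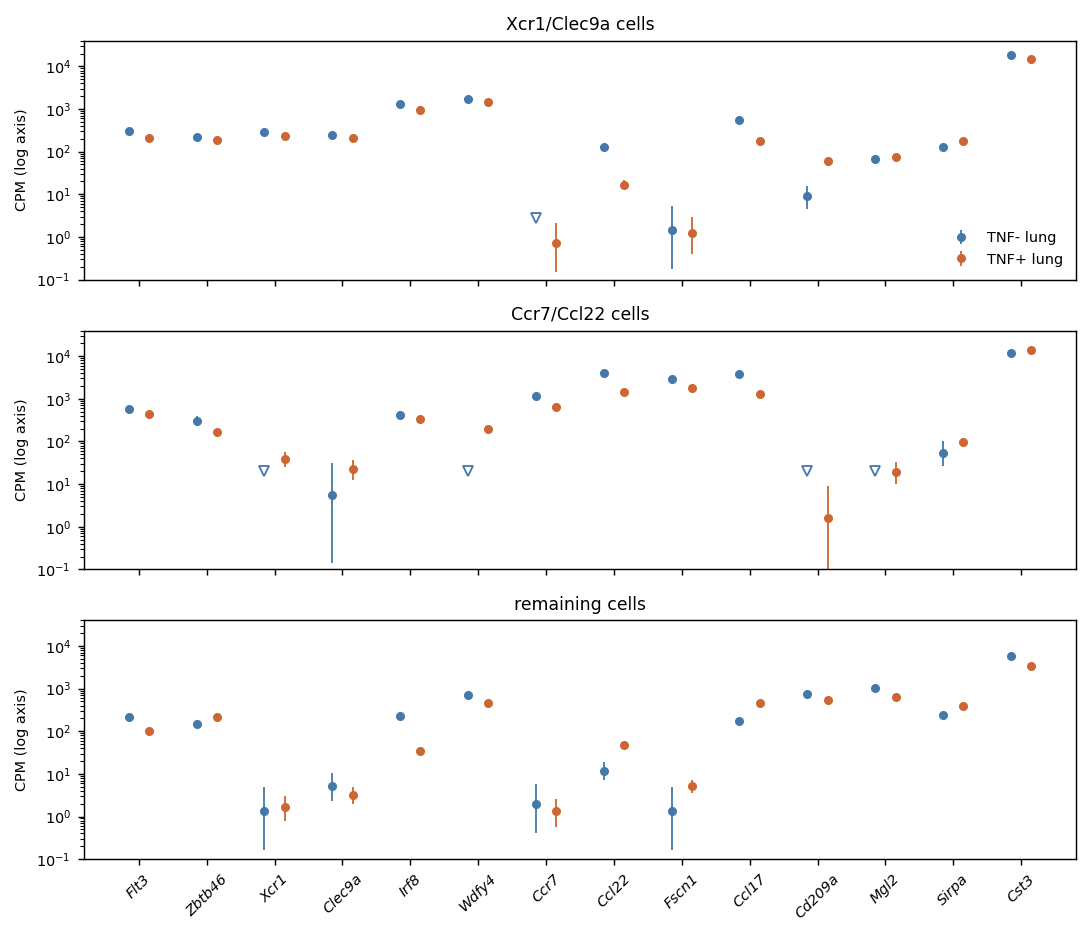
Levels of 14 marker genes in the 3 groups, in CPM on a log axis, for the TNF- (blue) and TNF+ (orange) lung. Points are summed UMIs of a group over its summed total and bars are exact Poisson 95% intervals of counting error. Open triangles show the upper limit of that interval for a gene with no UMI. Xcr1, Clec9a and Irf8 were highest in Xcr1/Clec9a cells, Ccr7 and Fscn1 in Ccr7/Ccl22 cells, and Cd209a and Mgl2 in remaining cells, in both libraries.

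Members made up 1.44% (1.19 to 1.72) of the 8342 passing TNF- lung barcodes and 3.28% (2.96 to 3.63) of the 11085 passing TNF+ barcodes. Leaving out barcodes with markers of other cells gave shares of 1.26% and 2.98%. On barcodes thinned to 3000 UMIs before the rule was applied they were 0.896% and 1.41%. All 3 groups had the larger share of barcodes in the TNF+ lung, with 0.623% (0.466 to 0.817) and 1.24% (1.04 to 1.46) for Xcr1/Clec9a cells, 0.0839% (0.0337 to 0.173) and 0.217% (0.139 to 0.322) for Ccr7/Ccl22 cells and 0.731% (0.560 to 0.938) and 1.83% (1.59 to 2.10) for remaining cells. The intervals of Ccr7/Ccl22 cells overlap. These shares depend on how many cells of every other type were captured, so more dendritic cells and fewer other cells cannot be told apart. The make-up of the libraries differed widely. Endothelial reference barcodes (at least 2 Cdh5 UMIs) numbered 2051 in TNF- and 186 in TNF+. T cell reference barcodes numbered 668 and 1071, and B cell reference barcodes 1209 and 1477.

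Among the members themselves the mix was close. Xcr1/Clec9a cells were 43.3% (34.3 to 52.7) of TNF- and 37.6% (32.6 to 42.8) of TNF+ members. Ccr7/Ccl22 cells were 5.83% (2.38 to 11.6) and 6.59% (4.27 to 9.65), and remaining cells 50.8% (41.6 to 60.1) and 55.8% (50.5 to 60.9). All 3 pairs of intervals overlap.

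**Figure D2:**
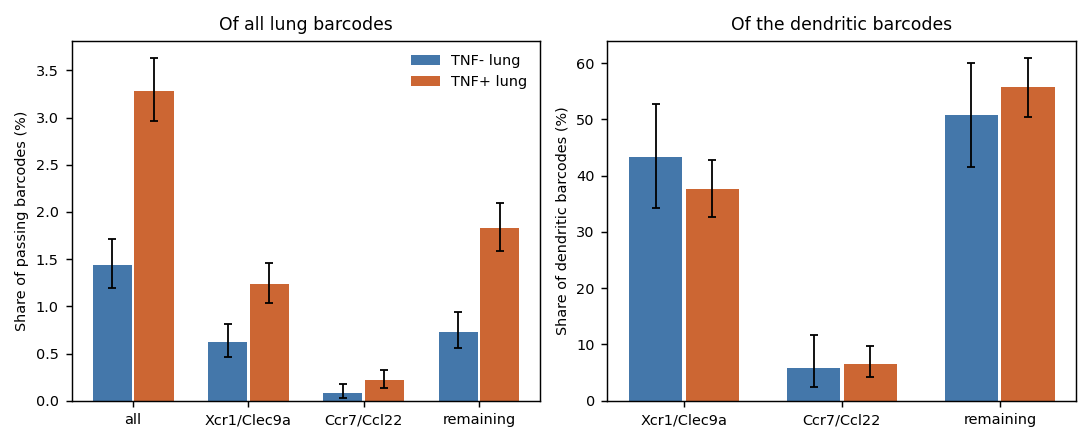
Shares of the dendritic barcodes and their 3 groups, in percent of all passing lung barcodes (left) and of the dendritic barcodes (right), for the TNF- (blue) and TNF+ (orange) lung. Bars carry exact binomial 95% intervals. The share of all members is 1.44% in TNF- and 3.28% in TNF+, while the mix on the right overlaps within its intervals.

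At the edge of the rule, 12 TNF- and 39 TNF+ barcodes held exactly 3 UMIs of the dendritic genes, with median sums of H2-Ab1 and H2-Aa of 36.5 and 169 UMIs. Just outside it, 19 TNF- and 68 TNF+ barcodes met every other limit with 2 UMIs, at medians of 54 and 122. Members with at least 10 UMIs of the dendritic genes, 74 and 219 barcodes, had medians of 449 and 518.

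The question of the genotype contrast was which genes of these cells differ in level between TNF+ and TNF- lungs. Over all members, 12877 genes held at least 20 UMIs in both libraries together. Of these, 701 (5.44%) were at least 2-fold higher and 1157 (8.99%) at least 2-fold lower in TNF+. A ratio past 2-fold is a size, not a test, and with few UMIs counting alone can produce it. Antigen presentation was the flattest list. None of 16 class II genes and none of 14 class I genes was past 2-fold in either direction over all members, and Cd74, the invariant chain that loads class II molecules, stood at 19804 CPM (TNF-) and 19845 CPM (TNF+). Mouse Tnf was at 94.2 CPM (83.5 to 106) in TNF- and 49.9 CPM (45.7 to 54.3) in TNF+ members; the human TNF gene has no entry in the mouse reference, so the transgene was not measured.

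In Xcr1/Clec9a cells Xcr1 and Clec9a were not past 2-fold between genotypes, but their UMIs chose the cells, so this is a description. Batf3 and Irf8, outside the rule, were lower in TNF+, though not past 2-fold. Itgae, Tlr3, Cd207 and several immediate-early genes were past 2-fold lower in TNF+. Past 2-fold higher were 10 of 16 chemokines and 4 of 25 NF-kB genes. Of 10655 genes measured, 745 (6.99%) were at least 2-fold higher and 621 (5.83%) at least 2-fold lower. Without barcodes with markers of other cells the counts were 672 and 589. Some cells of this group also carried genes of cDC2. Sirpa was in 19.2% of TNF- and 41.6% of TNF+ cells and Cd209a in 7.69% and 17.5%, while Mgl2 was in 26.9% and 16.1%.

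Xcr1 was at 296 CPM (268 to 327) in TNF- and 237 CPM (223 to 253) in TNF+ Xcr1/Clec9a cells, and Clec9a at 241 CPM (215 to 269) and 212 CPM (198 to 226). Flt3 was at 299.8 CPM (271 to 331) and 215 CPM (201 to 230). Batf3 was at 151 and 93.1 CPM and Irf8 at 1324 and 936 CPM, log2 ratios of -0.70 and -0.50. Of 17 measured cDC1 marker genes outside the rule, none was past 2-fold higher and 4 were past 2-fold lower in TNF+, with a median log2 ratio of -0.50. The 4 were the integrin Itgae (CD103), which binds epithelial E-cadherin, at 432.5 CPM (TNF-) and 176 CPM (TNF+); Tlr3 at 190 and 82.1 CPM; Cd24a at 432.5 and 214 CPM; and Cd207 (langerin) at 204 and 51.6 CPM. Without barcodes with markers of other cells Cd24a was no longer past 2-fold (-0.98). Over the alternative settings the log2 ratios of Itgae and Tlr3 came as near to equal levels as -0.67 and -0.81, no longer past 2-fold. The ratio of Cd207, -1.99 (-2.25 to -1.72), was -1.93 without barcodes with markers of other cells.

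Ccr9, a chemokine receptor known for homing to the gut and from plasmacytoid dendritic cells, was at 26.9 CPM (18.8 to 37.2) in TNF- and 182 CPM (169 to 195) in TNF+ Xcr1/Clec9a cells, a log2 ratio of 2.76 (2.28 to 3.28). It was detected in 26.9% and 77.4% of the cells, or in 7.69% and 28.5% when thinned. The direction was the same in remaining cells (11.5% and 51.2%, not thinned) and in Ccr7/Ccl22 cells (0% and 33.3%). In Xcr1/Clec9a cells the plasmacytoid marker list as a whole had 8 of 13 genes past 2-fold higher. Once barcodes with markers of other cells were left out it had 3 of 10, and Siglech went from 1.96 to -1.26. The ratio of Ccr9 was 2.70 without those barcodes. Mpzl2, an adhesion protein of the immunoglobulin superfamily, was at 1.49 CPM (0.181 to 5.39) and 46.9 CPM (40.5 to 54.1), a ratio of 4.98 (3.10 to 8.03), with a UMI in 3.85% of TNF- and 47.4% of TNF+ cells (1.92% and 13.1% when thinned).

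Among the 10 lowest ratios were those of Rgs1 (-3.04, with a UMI in 11.5% of TNF- cells), of Pcdh7, a protocadherin, and of Cacnb2, a subunit of voltage-gated calcium channels. Pcdh7 was at 330 CPM (300.3 to 363) in TNF- and 46.2 CPM (39.8 to 53.3) in TNF+, a log2 ratio of -2.84 (-3.09 to -2.59), and was detected in 73.1% and 16.8% of the cells (32.7% and 6.57% when thinned). Cacnb2 was at 256.5 CPM (230 to 285) and 35.1 CPM (29.6 to 41.4), a ratio of -2.87 (-3.16 to -2.58), with 63.5% and 23.4% of cells (32.7% and 5.84% when thinned). T cell barcodes held 0.216 UMIs of Pcdh7 a barcode in TNF- and 0.0121 in TNF+, and 0.105 and 0.0131 of Cacnb2, so the difference between libraries was present outside these cells too.

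Immediate-early genes respond within minutes to stimuli and to tissue dissociation. Of 23 measured immediate-early and heat-shock genes, 5 were past 2-fold lower in TNF+ and none higher, with a median of -0.53. There were 4 without barcodes with markers of other cells, as Jun no longer passed. Egr1 stood at 93.2 CPM (TNF-) and 16.2 CPM (TNF+), and Fosb at 171.5 and 52.3 CPM. Of 26 interferon-stimulated genes 9 were past 2-fold lower and 2 higher, but single cells carried several of them. Ifit2 was at 97.7 and 10.1 CPM with 58.8% of its TNF- UMIs in 1 cell, and Irf7 at 82.0 and 25.3 CPM with 58.2% in 1 cell. Their ratios turned to 1.31 and 1.35 with at most 1 UMI of 6 further lineage genes. Of the genes higher, Gbp2, a guanylate-binding protein, was at 3.73 and 56.0 CPM, and its ratio turned to -1.40 with the limit of 5000 genes per cell.

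The NF-kB list had 4 of 25 genes past 2-fold higher and none lower, all 4 of them feedback or survival genes of the pathway: Nfkbia (333 CPM in TNF-, 771 CPM in TNF+) and Nfkbie, which encode inhibitors of NF-kB, Birc3 (107 and 238 CPM) and Tnip1. The log2 ratio of Birc3, 1.15, went down to 0.79 over the alternative settings, no longer past 2-fold. Tnip1, a partner of A20, was at 35.8 CPM (26.4 to 47.5) and 125 CPM (114 to 136), a ratio of 1.80 (1.37 to 2.26), in 32.7% of TNF- and 87.6% of TNF+ cells (0% and 20.4% when thinned). Thinned further, to 1000 UMIs, the shares were 5.77% and 10.2%, so the 0% depends on the draw. The median log2 ratio of the list was 0.37; scaling by the median of ratios over all genes would shift every ratio of this group by -0.03. Of 14 class I genes none was past 2-fold, although B2m, the light chain of class I molecules, stood at 928.5 CPM (TNF-) and 1837 CPM (TNF+), just inside that limit. H2-Ab1 was at 7311 and 8051 CPM.

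Chemokines had 10 of 16 genes past 2-fold higher and 3 lower in TNF+ (8 of 14 and 3 without barcodes with markers of other cells, 6 of 13 and 3 in cells with a Flt3 UMI). Ccl9 was at 8.95 CPM (4.62 to 15.6) in TNF- and 151 CPM (140 to 164) in TNF+, and Ccl6 at 352 and 1112 CPM. The 3 lower were Ccl4, Ccl17 (556 and 178 CPM) and Ccl22, of which 93.1% of the TNF- UMIs came from 1 cell. Cytokine Il1b was at 23.9 CPM (16.3 to 33.7) and 131 CPM (120 to 143), in 26.9% and 51.1% of the cells, where T cell barcodes carried it in 4.04% and 14.3%. Of 17 complement and Fc receptor genes 8 were past 2-fold higher and none lower, 3 of them C1q genes that the rule limits. Complement C3 was at 7.46 and 121 CPM and Cfb, of the alternative pathway, at 1.49 and 105 CPM, of which 23.6% came from 1 TNF+ cell. The log2 ratio of Cfb, 6.14, was 0.19 with the limit of 5000 genes per cell.

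Of 17 measured macrophage markers, 6 were past 2-fold higher in TNF+ Xcr1/Clec9a cells and none lower. The summed level of 18 macrophage markers was 3527 CPM (TNF-) and 9036 CPM (TNF+), or 1102 and 3843 CPM without barcodes with markers of other cells. Lyz2 (lysozyme) was at 1408 and 6051 CPM, but its median per cell was 20.5 and 33 UMIs, while T cell barcodes, which do not express it, held a mean of 2.04 and 18.0 UMIs. Mmp12, a metalloelastase of macrophages, had no UMI in TNF- and stood at 226 CPM in TNF+ with a UMI in 19.0% of the TNF+ cells. Against a floor of 3 UMIs over the group, its log2 ratio was at least 6.66. That bound was 6.56 without barcodes with markers of other cells and 3.83 in cells with a Flt3 UMI. Lipid-handling and lysosomal genes had 13 of 24 past 2-fold higher and none lower, also 13 of 23 without those barcodes, among them the fatty acid carrier Fabp5 at 22.4 and 247 CPM and cathepsin D (Ctsd) at 255 and 776.5 CPM. The part of free RNA and of other cells in these values was not tested beyond these figures.

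**Figure D3:**
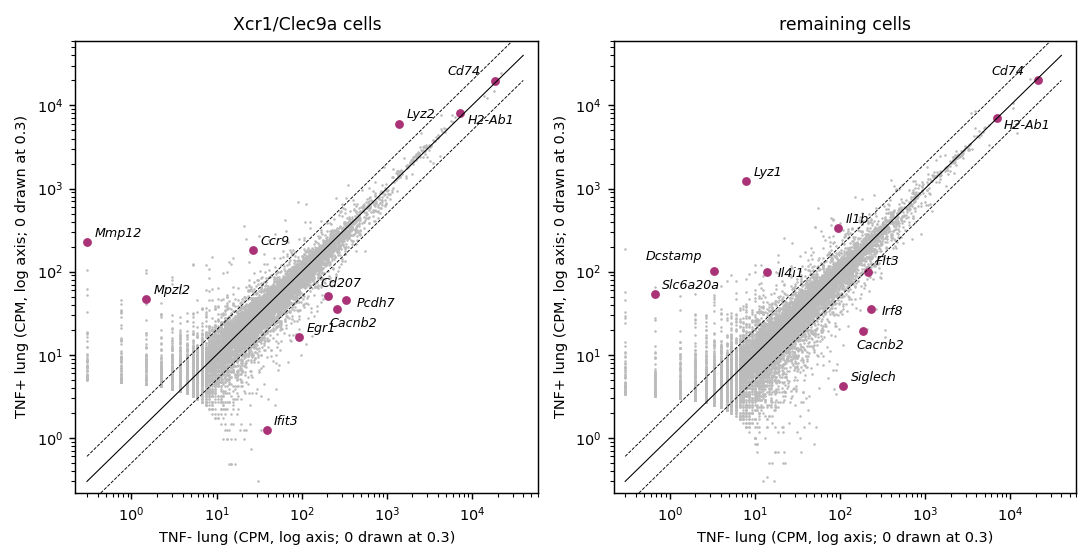
CPM of every measured gene in TNF- (x axis) and TNF+ lung (y axis), both log axes, in Xcr1/Clec9a (left) and remaining cells (right). The solid line marks equal levels and dashed lines a 2-fold difference. H2-Ab1 and Cd74 lie near the line in both panels, while Pcdh7, Cacnb2 and Cd207 on the left and Irf8 and Cacnb2 on the right lie below the lower dashed line.

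In remaining cells the TNF+ library had lower Flt3 and Irf8 and many macrophage marker, chemokine, cell cycle and mature dendritic genes past 2-fold higher, with H2-Ab1 and Cd74 close. Monocyte markers were divided, with 5 of 15 past 2-fold higher and 6 lower, and of 6 neutrophil markers 4 were lower (none of 3 without barcodes with markers of other cells, where 1 was higher). Of 11745 genes measured, 876 (7.46%) were at least 2-fold higher and 1084 (9.23%) at least 2-fold lower in TNF+. Leaving out barcodes with markers of other cells gave 836 and 705.

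Flt3 was at 216 CPM (193 to 241) in TNF- and 99.0 CPM (91.2 to 107) in TNF+ remaining cells, a log2 ratio of -1.13 (-1.32 to -0.93), which was the same without barcodes with markers of other cells. Zbtb46 was at 149 CPM (130 to 170) and 219 CPM (207 to 231). The lectins of lung cDC2 were somewhat lower, Cd209a at 764.5 and 530 CPM and Mgl2 at 1020 and 630 CPM, neither past 2-fold. Irf4 (94.5 and 83.3 CPM) and Klf4 (207 and 210 CPM), transcription factors of cDC2, were close. Irf8 was at 232 CPM (208.5 to 258) and 35.3 CPM (30.6 to 40.3), a ratio of -2.72, or -1.38 without barcodes with markers of other cells. Siglech and Cox6a2 of plasmacytoid cells were among the 10 lowest ratios, at -4.71 and -3.57, and stood at -1.05 and -0.18 without those barcodes. The integrin Itgax (CD11c) was at 185 and 401.5 CPM, Csf1r, the receptor of macrophage growth factor, at 114 and 268 CPM, and Csf2rb, the shared chain of the GM-CSF receptor, at 105 and 222 CPM. Without barcodes with markers of other cells the ratios of Itgax and Csf2rb were 0.90 and 0.83, no longer past 2-fold. Among cells with a Flt3 UMI Csf1r was at 116 CPM (TNF-) and 164 CPM (TNF+), also not past 2-fold.

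Cells without a Flt3 UMI were 9.84% of TNF- and 43.8% of TNF+ remaining cells, 6 and 89 cells. Of the 6, 5 carried markers of other cells, and without such barcodes 1 of 50 TNF- and 75 of 184 TNF+ cells lacked it. Within the TNF+ library these cells differed from those with Flt3 in several genes. Lyz1 was at 2654 CPM without and 80.1 CPM with Flt3, Mmp12 at 872 and 87.0 CPM, Lyz2 at 14589 and 3627 CPM and Csf1r at 398 and 164 CPM. Kit, the stem cell factor receptor of some dendritic precursors, was at 12.1 and 107 CPM, Wdfy4 at 203 and 679 CPM and H2-Ab1 at 5006 and 8777 CPM. Zbtb46 was at 190 and 243 CPM, and at least 94.7% of the cells on each side carried it. Since Flt3 and Zbtb46 helped to choose the cells, this split is a description. Among TNF+ cells with Flt3, Sftpc was at 3228 CPM in all 114 and at 206 CPM in the 109 without markers of other cells.

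**Figure D4:**
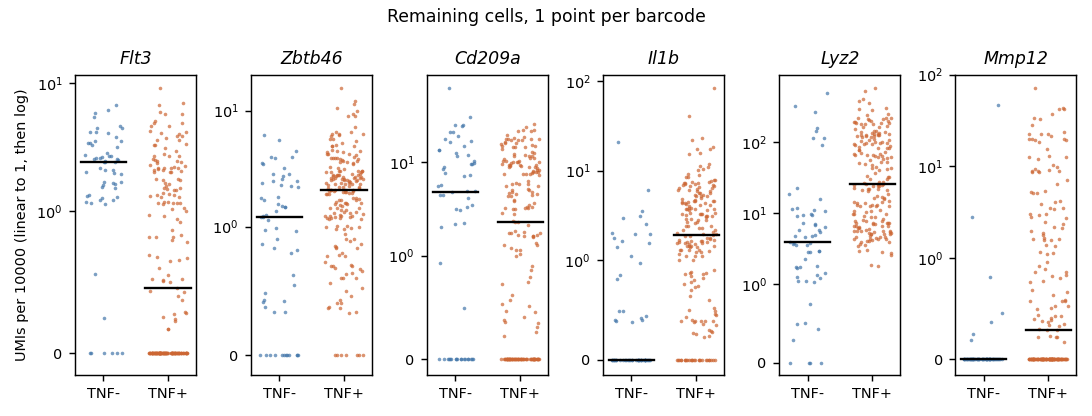
UMIs per 10000 of 6 genes in each remaining cell, on an axis that is linear to 1 and logarithmic above, for the TNF- (blue, 61 cells) and TNF+ (orange, 203 cells) lung. Black lines are medians. The median of Flt3 is 2.40 in TNF- and 0.463 in TNF+, and that of Lyz2 3.88 and 26.0, with a wide spread in both. T cell barcodes, which do not express Lyz2, held a mean of 2.04 (TNF-) and 18.0 (TNF+) UMIs of it. Their median depths were 9889.5 and 10134 UMIs. The part of free RNA in the Lyz2 values was not tested.

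Genes known from macrophages were among the highest ratios, and several were smaller among cells with Flt3. Lyz1 stood at 7.99 CPM (TNF-) and 1224 CPM (TNF+) remaining cells, a log2 ratio of 7.26 (6.45 to 8.21), and 3.38 among cells with a Flt3 UMI. T cell barcodes held a mean of 0.106 (TNF-) and 0.641 (TNF+) UMIs of Lyz1, and B cell barcodes 0.517 and 2.52. A difference between libraries was thus present outside these cells too, and its part in the ratio of 3.38 was not tested. Lyz1 and Lyz2 are near-identical copies, so the division of their reads is uncertain. Marco, a scavenger receptor, had a ratio of 6.64, and 1.89 without barcodes with markers of other cells. Mmp12 was at 81.8 and 436 CPM, but 89.4% of its TNF- UMIs came from 1 cell, and among cells with Flt3 its ratio was -0.11. The summed level of 18 macrophage markers was 5175 CPM (TNF-) and 10892 CPM (TNF+). Most of each sum was Lyz2, with 5842 of the 1502871 UMIs of the group in TNF- and 50632 of 5957260 in TNF+. Of its TNF- UMIs, 28.7% came from 1 cell. Of the macrophage markers, 10 of 17 were past 2-fold higher and 1 lower, or 5 of 13 and 1 without barcodes with markers of other cells.

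Other ratios stayed large in both subsets. Slc6a20a, a proline transporter, was at 0.665 CPM (0.0168 to 3.71) in TNF- and 53.4 CPM (47.7 to 59.6) in TNF+, in 1.64% and 48.8% of the cells (0% and 6.40% when thinned), and its ratio of 6.33 was 5.59 without barcodes with markers of other cells and 5.74 among cells with Flt3. Dcstamp, a membrane protein needed for the fusion of myeloid cells, was at 3.33 CPM (1.08 to 7.76) and 103 CPM (94.9 to 111), with ratios of 4.95, 4.87 and 3.60 in the same order. Elavl4 stood at 0.665 and 26.5 CPM. On the other side, Cacnb2 was at 188 CPM (167 to 212) and 19.1 CPM (15.8 to 23.0), a ratio of -3.30 (-3.63 to -2.98), so this gene was lower in TNF+ in this group as in Xcr1/Clec9a cells. Bco2, a carotenoid-cleaving enzyme, was at 41.3 and 8.39 CPM.

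Cytokine genes of the remaining cells had 4 of 19 past 2-fold higher in TNF+ (Il1a, Il1b, Il1rn and Il10) and 2 lower, with a median of -0.27, and alarmin and acute-phase genes 7 of 20 higher and 5 lower. Il1b was at 95.8 CPM (80.8 to 113) in TNF- and 334 CPM (319 to 349) in TNF+, a ratio of 1.80 (1.56 to 2.05), in 41.0% and 87.2% of the cells (13.1% and 39.9% when thinned). Without barcodes with markers of other cells the ratio was 2.32, and among cells with Flt3 1.62. Chemokines had 14 of 16 genes past 2-fold higher and 1 lower (Ccl4), or 10 of 15 and 2 without barcodes with markers of other cells and 8 of 13 and 1 among cells with Flt3. Cxcl16, which is membrane-bound and binds Cxcr6, was at 120 and 292 CPM, and Ccl17 at 174 and 455 CPM. Of the TNF- UMIs of Ccl17, 46.7% came from 1 cell. Its log2 ratio of 1.39 was 0.51 with at least 5 Xcr1 and Clec9a UMIs, no longer past 2-fold. Ccl22, which is in the 14 although the rule used it and the grouping removed many of its carriers, was at 12.0 and 47.7 CPM, and its ratio turned to -1.30 with at least 5 Xcr1 and Clec9a UMIs.

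The mature dendritic list had 12 of 27 genes past 2-fold higher and none lower, with a median of 0.70, and 14 of 27 among cells with Flt3. The NF-kB subunit Relb was at 48.6 CPM (38.1 to 61.1) in TNF- and 173 CPM (162.5 to 184) in TNF+, in 59.0% and 92.1% of the cells (9.84% and 25.1% when thinned). The checkpoint ligands Cd274 (PD-L1) and Pdcd1lg2 (PD-L2) were at 35.9 and 118 CPM and at 5.32 and 29.5 CPM, Cd40 at 16.0 and 42.1 CPM and Il4i1, an amino acid oxidase, at 14.0 and 99.2 CPM. Ccr7 itself was at 1.996 and 1.343 CPM, as the grouping removed its carriers. Of 25 NF-kB genes 5 were past 2-fold higher and none lower, among them Nfkbia (458 and 973 CPM) and Tnfaip2 (27.3 and 111 CPM, with 61.0% of the TNF- UMIs in 1 cell and a ratio of -1.12 under the limit of 5000 genes).

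Cell cycle genes were higher in TNF+ remaining cells, with 16 of 22 past 2-fold and none lower and a median of 1.21 (14 of 22 without barcodes with markers of other cells, 19 of 22 among cells with Flt3). Mki67 was at 26.6 CPM (19.0 to 36.2) in TNF- and 87.8 CPM (80.4 to 95.7) in TNF+, and Stmn1 at 77.2 and 227 CPM. Few TNF- cells carried these genes, and 1 cell held 60.0% of the TNF- UMIs of Mki67 and 68.3% of those of Top2a. With the upper limit of 5000 genes per cell that the study used, the ratios of Top2a and Cdk1 turned to -0.69 and -2.27, and that of Stmn1 was 0.28. In Xcr1/Clec9a cells the same list had 3 of 22 genes past 2-fold higher and a median of -0.02.

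Class II genes were close here as well, with H2-Ab1 at 6948 CPM (6815 to 7083) in TNF- and 7101 CPM (7034 to 7169) in TNF+, Cd74 at 21296 and 19994 CPM, and 1 of 16 genes past 2-fold higher (H2-Eb2, at 15.3 and 31.2 CPM; none without barcodes with markers of other cells, where Lgmn was lower). Complement C3 was at 79.2 CPM and 360 CPM, with 69.7% of the TNF- UMIs in 1 cell. Among interferon-stimulated genes 6 of 26 were past 2-fold higher and 5 lower, Gbp2 at 9.98 and 121 CPM.

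**Figure D5:**
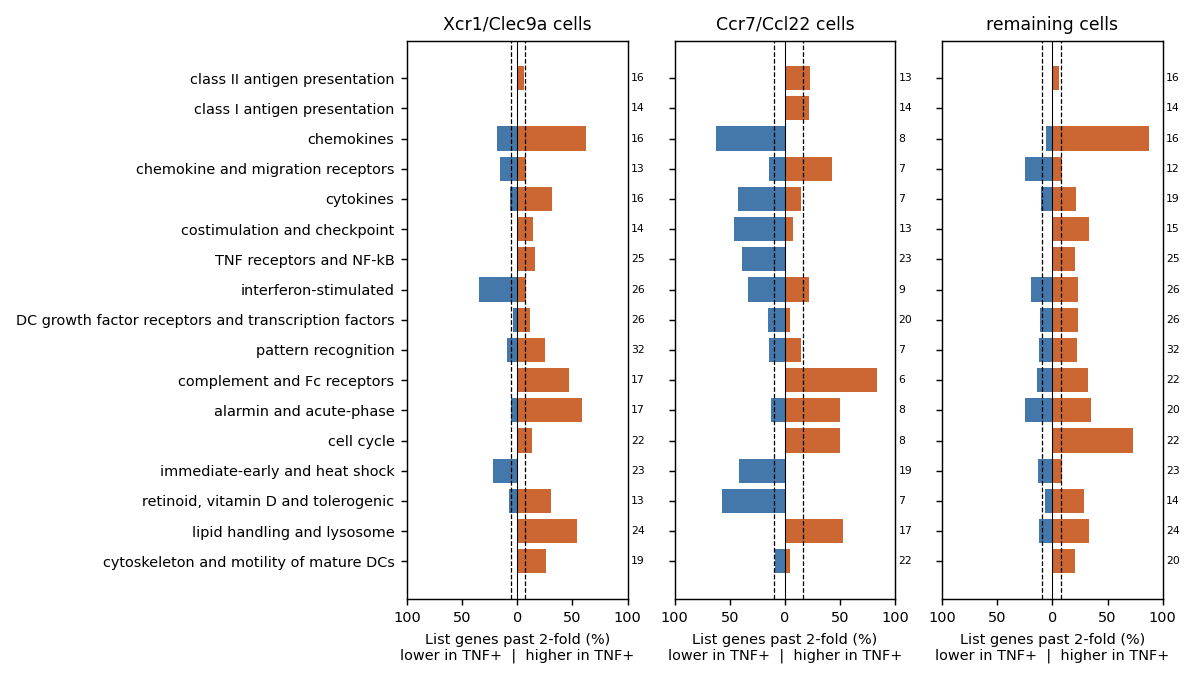
Share of the genes of 17 lists that were past 2-fold higher (orange, to the right) or lower (blue, to the left) in TNF+, in percent of the measured genes of a list, whose number stands at the right of each panel. Dashed lines show the same share over all measured genes. Cell cycle genes reach 16 of 22 in remaining cells, while no class I gene is past 2-fold there or in Xcr1/Clec9a cells.

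The Ccr7/Ccl22 cells were few, 7 in the TNF- and 24 in the TNF+ lung, so 1 cell can set a level. Ccr7 defined them in both libraries. Of 4854 genes measured, 776 (16%) were at least 2-fold higher and 483 (9.95%) at least 2-fold lower in TNF+. Ccr7 was at 1191 CPM (1038 to 1360) in TNF- and 644 CPM (583 to 710) in TNF+, with medians of 26 and 14.5 UMIs per cell. Fscn1 was at 2973 CPM (2728 to 3234) and 1774 CPM (1671 to 1881). Ccl22 was at 4088 and 1484 CPM, yet 67.8% of the TNF- UMIs came from 1 of the 7 cells, and the median per cell was 14 UMIs in TNF- and 17.5 in TNF+. Ccl17 was at 3787 and 1299 CPM, with 69.6% of the TNF- UMIs from 1 cell, and its median per cell was 43 UMIs in TNF- and 16 in TNF+.

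Of 32 mature dendritic genes outside the rule, 1 was past 2-fold higher and 11 were past 2-fold lower in TNF+, with a median of -0.57. The costimulatory ligands Cd80 (399 and 62.3 CPM) and Cd86 (852.5 and 174 CPM) were lower, as were Il12b (749 and 230 CPM, 92.0% of the TNF- UMIs from 1 cell) and the NF-kB subunit Nfkb1 (1082 and 334 CPM). Relb (1000.1 and 909 CPM), Tmem123 (1667 and 1492 CPM) and Cacnb3 (530.1 and 481 CPM) were close. H2-Ab1, a gene of the rule, was at 2006 CPM (1806 to 2222) and 4383 CPM (4220 to 4550), with medians of 4.24 and 37.6 UMIs per 10000. Its log2 ratio of 1.13 was 0.91 among cells with Flt3 and 0.34 with at most 1 UMI of 6 further lineage genes. Of 13 class II genes 3 were past 2-fold higher, or 2 among cells with Flt3, beside 16% of all genes. Wdfy4 had no UMI in the 7 TNF- cells and stood at 195 CPM in TNF+, with 64.8% of its UMIs in 1 cell.

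Among the lowest ratios of the Ccr7/Ccl22 cells were 3 enzymes of the sterol synthesis pathway. Hmgcs1 was at 492 CPM (396 to 604) in TNF- and 63.9 CPM (45.7 to 87.0) in TNF+, Idi1 at 907 CPM (774 to 1056) and 113 CPM (88.6 to 143) and Fdps at 464.5 CPM (371 to 574) and 33.6 CPM (20.8 to 51.3). Idi1 and Hmgcs1 were detected in 7 of 7 TNF- cells, with at most 41.1% of the UMIs of either in 1 cell, and in 62.5% and 50% of the TNF+ cells. No list of sterol genes had been drawn up, so the 3 are named only as members of the 10 lowest ratios.

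The same rule in the synovial libraries gave 245 of 6638 TNF- barcodes (3.69%) and 39 of 3498 TNF+ barcodes (1.11%), the opposite order to the lung. The labels do not say whether lung and synovium came from the same animals. Ccr7/Ccl22 cells were 28 of the 245 and 13 of the 39. They were unlike the lung group of that name. Fscn1 was in 10.7% of the TNF- and 53.8% of the TNF+ synovial cells, against 100% and 95.8% in the lung. Cd209a was in 67.9% and 30.8%, against 0% and 4.17% in the lung.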

How the data were processed

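Droplet single-cell RNA-sequencing (10x Genomics 3′ kit) was analysed in 2 lung libraries, with the 2 synovial libraries used only for counts of barcodes and levels of marker genes. Per the submitters' processing notes the authors deposited raw UMI counts per gene and barcode from Cell Ranger 7.0.1 on mm10, with default settings. These include intronic reads, so an unspliced or overlapping transcript can add to a gene. The counts are not normalized.

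From the counts, UMIs were summed over the cells of a group and divided by the group's total (CPM). Intervals are exact Poisson (CPM), exact Clopper-Pearson (shares) and conditional binomial (log2 ratios), at 95%. Ratios were computed for genes with at least 20 UMIs over both libraries, and a gene at 0 was set to a floor of 3 UMIs. With 1 library per genotype and tissue no test was run. Cells were also thinned to 2000 UMIs, which left out no member. Reference barcodes were T cells (at least 2 Cd3e UMIs), B cells (3 UMIs) and endothelium (2 Cdh5 UMIs).

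Members, groups and gene lists were chosen with earlier results of these data known. Genes named were the 6 given markers, genes of pathway lists with at least 50 UMIs, the 10 highest and 10 lowest ratios among genes with at least 100 UMIs, a UMI in at least 10% of cells and 3 times the UMIs per cell of the reference barcodes, and the 15 highest within-library ratios. Mitochondrial, ribosomal, predicted, immunoglobulin and Y-linked genes were left out of the 10. Genes of the lists outside this rule (among them Il1a, Il10, Ccr9, Lyz2, Cd24a, Sirpa, Mgl2, Marco, Tmem123 and Cacnb3) were named after their values were seen. The ratios and their intervals were checked on simulated Poisson counts with known ratios. Those counts held no spread between cells or mice, so the check covers counting error alone. Python 3.11.15, numpy 2.4.6, scipy 1.17.1, pandas 2.3.3 and matplotlib 3.10.9 were used.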

Additional observations from a re-analysis of the deposited data

Results flagged for a closer look

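The share of passing barcodes that met the dendritic cell rule was 1.85 percentage points higher in the TNF+ than in the TNF- lung, and in the synovium the difference was -2.58 points. The tissues were marked because their differences have opposite signs. Each share comes from 1 library, so the difference between the tissues was not tested. Without barcodes with markers of other cell types the differences were 1.72 and -2.41 points. With the rule applied to lung barcodes thinned to 3000 UMIs, the lung shares were 0.896% (TNF-) and 1.41% (TNF+).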

How the results depend on the processing

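No paired analysis was possible because each genotype and tissue is 1 library. The TNF+ share of lung barcodes was above the TNF- share under every alternative run. It was 0.815% (TNF-) and 1.69% (TNF+) with 200 to 5000 detected genes, 1.01% and 2.73% with at most 1 UMI of 6 further lineage genes, and 0.896% and 1.41% on barcodes thinned to 3000 UMIs. In TNF+ it was 3.83% with at least 2000 UMIs and 2.69% with at least 5 dendritic UMIs. Among members, the Xcr1/Clec9a share was 32.5% (TNF-) and 27.2% (TNF+) with at least 5 Xcr1 and Clec9a UMIs, and in TNF+ 45.6% with at least 1 and 46.4% in cells with Flt3. The Ccr7/Ccl22 share was 12.3% in both libraries with 200 to 5000 genes, and in TNF+ 12.6% with no Ccr7 limit. The remaining share was 61.7% and 66.2% with at least 5 Xcr1 and Clec9a UMIs, and in TNF+ 48.4% with 200 to 5000 genes, 50.3% with at least 5 dendritic UMIs, 47.8% with at least 1 Xcr1 or Clec9a UMI and 45.2% in cells with Flt3.

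Counts of genes past 2-fold depended on the limits. With 200 to 5000 genes there were 654 lower over all members, 508 higher in Ccr7/Ccl22 and 655 lower in remaining cells. Remaining cells had 701 lower with the further lineage limit and 705 without markers of other cells. With at least 100 UMIs the higher and lower counts were 326 and 361 (all), 234 and 171 (Xcr1/Clec9a), 96 and 127 (Ccr7/Ccl22) and 401 and 307 (remaining). With at least 1 UMI the lower counts were 5551, 4509, 4690 and 5365 in that order, and 1380 were higher in Ccr7/Ccl22 cells; genes at 0 set to the floor make up such counts by construction. For genes 3-fold above the reference barcodes they were 280 and 393 (all), 158 and 225 (Xcr1/Clec9a), 112 higher (Ccr7/Ccl22) and 350 and 404 (remaining). In cells with Flt3, Xcr1/Clec9a cells had 6 chemokines, 4 interferon-stimulated and 0 class II genes higher, and remaining cells 8 chemokines, 3 NF-kB and 5 lipid genes higher and 1 class II gene lower. Without markers of other cells, remaining cells had 2 chemokines, 3 interferon-stimulated genes and 1 class II gene lower, and 0 class II and 2 lipid genes higher.

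Some log2 ratios turned in sign, and the cause was not tested. With 200 to 5000 genes these were Cfb (all, -0.60), Gbp2 (-1.40), Il12b (-2.72) and Mmp19 (0.32) in Xcr1/Clec9a cells, Xcr1 in Ccr7/Ccl22 cells (-1.75), and Cdk1 (-2.27), Mmp12 (-0.52), Saa3 (-0.10), Tnfaip2 (-1.12) and Top2a (-0.69) in remaining cells. With at least 5 dendritic UMIs they were Cox6a2 (all, 0.29) and Acoxl (remaining, 0.11). With the further lineage limit they were Ifit2 (0.66 over all, 1.31 in Xcr1/Clec9a), Irf7 (1.35) and Pde4d (Ccr7/Ccl22, 0.85). Without markers of other cells they were Cox6a2 (all, 2.004) and Mmp19 (1.32). In cells with Flt3 they were Mmp19 (0.032), Acoxl (0.24), Cbr2 (0.10) and Mmp12 (remaining, -0.11). With at least 5 Xcr1 and Clec9a UMIs they were Ccl22 (0.97 in Xcr1/Clec9a, -1.30 in remaining) and Mmp19 (0.70). Of the named genes past 2-fold, 24 of 41 in Xcr1/Clec9a, 22 of 33 in Ccr7/Ccl22 and 25 of 47 in remaining cells stayed past it in every alternative run. Counting error limits the Ccr7/Ccl22 cells most, with 7 cells in TNF-.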
